A study of Mus musculus with 6 samples.

Results

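The replication-dependent histone genes were taken as every protein-coding row of the gene table whose symbol begins with Hist1h, Hist2h, Hist3h or Hist4h. There were 67 of them among 54532 genes, of which 22046 were protein-coding. The class letters in the symbols gave 6 H1, 18 H2A, 18 H2B, 12 H3 and 13 H4 genes. They fell in 4 clusters on GRCm38, with 54 genes of Hist1 on chromosome 13, 10 of Hist2 on chromosome 3, 2 of Hist3 on chromosome 11 and 1 Hist4 gene on chromosome 6. RNA was profiled from mouse bone marrow-derived macrophages (BMDMs) after co-culture with ID8 cells, an ovarian cancer line of mouse origin. The pretreatment of the tumour cells was cisplatin (40 µM), a DNA-crosslinking platinum compound, for 3 libraries and PBS, the control, for the other 3. Every BMDM culture thus received tumour cells, and the difference between groups was the pretreatment of those cells. By the study's methods the marrow came from C57BL/6 mice some weeks old. The libraries were made from poly-T selected RNA.

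Histone proteins package DNA. Pairs of H2A with H2B and of H3 with H4 form the core around which DNA is wrapped, and the linker histone H1 binds where DNA enters and leaves that core. Genes of these clusters are transcribed mainly while DNA is copied, and their mRNAs are unlike other mRNAs in that they usually end in a short stem-loop bound by SLBP instead of a poly(A) tail. Some of the genes also give polyadenylated transcripts, which continue beyond the stem-loop and are known from differentiated cells. Poly-T selection retains polyadenylated RNA, so the values below are levels of what that selection kept, and the share of histone mRNA it did not keep was not measured.

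The stem-loop could be read directly from the GENCODE M21 transcripts on GRCm38. It was searched on the sense strand as GGNNNT, any 4 loop bases and the reverse complement of the first 6. It was present in 46 of the 52 histone genes that had an annotated 3′UTR of at least 16 bases (88.5%), against 162 of 20931 other protein-coding genes (0.774%). There were 8 distinct hairpins. The most frequent stood in 26 genes of the H1, H2A, H2B and H3 classes, whereas all 12 H4 genes with a stem-loop carried other stems. The hairpins of genes described below are shown with 5 bases on either side, and capitals mark the hairpin.
Hist1h1c: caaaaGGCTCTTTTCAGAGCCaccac
Hist1h1d: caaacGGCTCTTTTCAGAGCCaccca
Hist1h2bg: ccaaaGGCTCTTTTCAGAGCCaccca
Hist3h2a: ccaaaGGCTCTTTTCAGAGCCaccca
Hist2h3c2: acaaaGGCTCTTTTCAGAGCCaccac
Hist1h4i: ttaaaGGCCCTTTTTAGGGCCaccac
The capital bases of Hist1h1c lay at chr13:23739512-23739527 on the plus strand, in its 3′UTR. After them the annotated transcript ran on for 840 bases. The transcript of Hist1h1d ran on for 4884 bases after its hairpin at chr13:23555787-23555802. The corresponding lengths were 155 bases for Hist1h2bg, 1643 for Hist3h2a, 377 for Hist2h3c2 and 330 for Hist1h4i.

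Levels were low for nearly all of the 67 genes. Reads per gene were recovered from the FPKM (fragments per 1000 bases of gene and 1000000 reads), because 100% of the values under 200 reads, the range checked, were whole multiples of what 1 read was worth. Of 15776238 to 17924686 reads per library, 1255 to 1784 fell on histone genes. Hist1h1c alone held 44.6% of the histone reads over all libraries. It was above 0 in all 6 libraries together with 36 other genes, while 8 of the 67 genes were listed at 0 in all 6. A gene with 0 reads in 97850513 could still have a level of up to 0.0307 reads per 1000000, and this limit covers counting error only. Further, 51 genes averaged under 10 reads in a library. A filter of at least 1 FPKM in at least 3 libraries was passed by 8 genes, whereas 59 did not pass it. No H3 gene passed it.

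Many histone genes have near-identical sequence. For each gene, the share of 100-base windows of its transcript found in no other gene's transcripts was computed. It was 0% for 5 genes, namely Hist2h2aa1, Hist2h2aa2, Hist2h2bb, Hist2h3b and Hist2h3c1, and all 5 were listed at 0. The other 3 genes listed at 0 were Hist1h2ap (7.83%), Hist1h2ba (72.6%) and Hist1h2aa (89.7%), while Hist1h2ao, with 7.35%, had 40 reads over all libraries. The part of shared sequence in these values was not tested. Across the 8 genes that passed the filter the median was 72.4%, with the lowest, 35.7%, in Hist1h4k. How reads matching several genes were treated is not given in the sources used here. By translation of their GENCODE coding sequences, the 13 H4 genes encode 1 protein and the 12 H3 genes encode 2, whereas the 6 H1 genes encode 6 different proteins. In addition, 24 of the 67 genes overlap another gene of the table. Among them are every H2A gene and all genes listed at 0 except Hist1h2ba. Windows shared with the transcript of an overlapping gene also counted as not unique. The part of overlap in the values at 0 was not tested.

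Reads were unequally spread over genes with different annotated 3′ ends. The 23 genes with more than 100 annotated bases after it held 71.9% of the histone reads, or 49.4% when Hist1h1c was left out, at a median of 10 mean reads per library. The 23 with at most 100 bases after it held 5.04%, at a median of 2.17. The 6 genes with a 3′UTR but no stem-loop held 20.6%, nearly all of it from Hist1h2bc and Hist2h2be, with 1007 and 760 reads over all libraries. The other 15 genes had no annotated 3′UTR of 16 bases and held 2.45%. Longer transcripts also collect more reads at the same level, and per length the medians were closer, at 0.416 FPKM for the long tails and 0.270 FPKM for the short ones, beside 0.158 FPKM for the genes without a stem-loop and 0.106 FPKM for those without an annotated 3′UTR. These values describe 1 set of annotations, with no test.

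**Figure D1:**
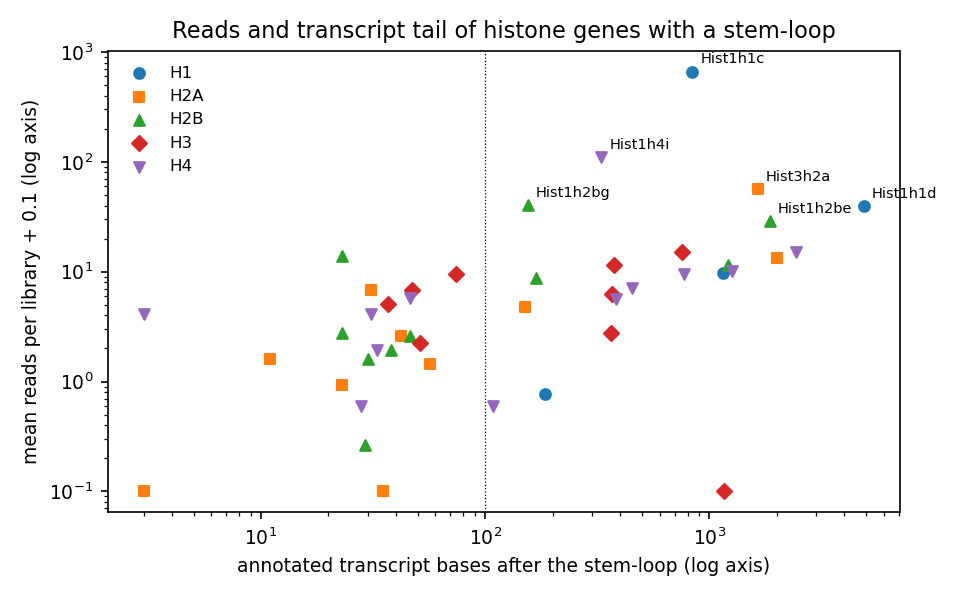
Mean reads per library (0.1 added, log axis) against the annotated transcript bases after the stem-loop (log axis) for the 46 histone genes with a stem-loop, with marker shapes for the 5 classes and a dotted line at 100 bases. Hist1h1c, with 840 bases, stands highest, and 1 of the 23 genes left of the line, against 4 of the 23 right of it, passed the FPKM filter.

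Many H2A and H2B genes share a promoter region and are read in opposite directions. In the 12 such H2A and H2B pairs, with 176 to 306 bases between their starts, the FPKM averaged over the libraries was higher for the H2B gene in 8 and for the H2A gene in 3, and both were listed at 0 in 1 pair. Both genes together had fewer than 30 reads over all libraries in 7 of the 12 pairs, so the order within those is uncertain. The 3 pairs with most reads are given next. Hist1h2bc stood at 8.85 FPKM beside 0.321 FPKM for Hist1h2ac (1007 and 79 reads over all libraries). Hist2h2be stood at 2.94 FPKM beside 0.161 FPKM for Hist2h2ac (760 and 8 reads), and Hist1h2bg at 3.99 beside 0.396 FPKM for Hist1h2ae (243 and 28 reads). These are levels over all 6 libraries and not differences between groups. Every H2A gene overlaps another gene of the table, whereas Hist1h2bc, Hist2h2be and Hist1h2bg overlap none. How reads in such overlaps were counted is not given in the sources used here. The part of overlap in the order within pairs was not tested.

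The first comparison asked whether histone genes of the co-cultured BMDMs differed by the pretreatment of the ID8 cells. A gene was called when limma on log2(FPKM + 1) gave a Benjamini-Hochberg adjusted p under 0.05 over the 13441 genes tested and a change of at least 2-fold. Of the 8 histone genes tested, 0 were called higher and 0 lower, while 4.67% of all genes tested were called higher and 11.3% lower. At an unadjusted p under 0.05, 1 of the 8 was higher and 2 were lower, beside 4613 and 4889 of all 13441 genes tested. On the recovered reads of the same genes, limma's voom called 0 histone genes as well, beside 1227 higher and 1862 lower among all genes. By the adjusted p alone, 1 of the 8 (Hist1h2bg) was higher against a background of 32.9%, and 2 (Hist1h1c and Hist1h2bc) were lower against 35.1%. The groups did not overlap for these same 3 genes. The background of such separation was 35.2% of tested genes with all cisplatin libraries above and 37.2% with all PBS libraries above, so these shares of the histone genes were not above the background. Of the 51 histone genes above 0 that did not pass the filter, 3 had every cisplatin library above every PBS library and 9 had every PBS library above. Among the 19473 genes of the table in that range the shares were 10.1% and 8.28%, without matching for reads or length. The median log2 fold change of the 8 genes was 0.09, beside 0.00 for all genes tested.

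**Figure D2:**
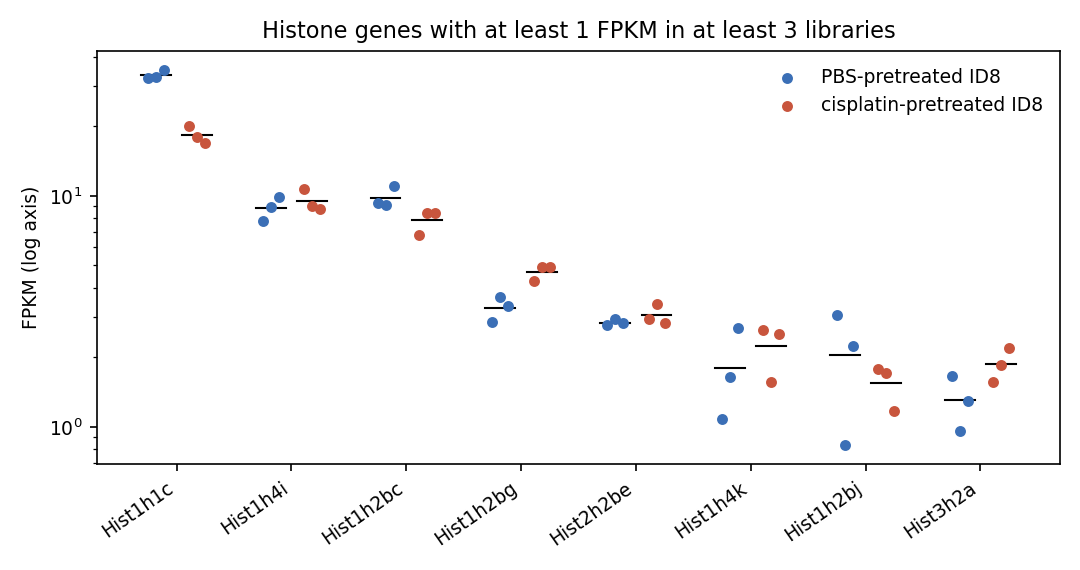
FPKM (log axis) of the 8 histone genes that passed the filter, in each of the 3 PBS (blue) and 3 cisplatin (red) libraries, with black lines at the group means. Hist1h1c, at 33.3 FPKM with PBS and 18.3 FPKM with cisplatin, is the highest gene in both groups, and its groups are apart.

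The smallest adjusted p among the histone genes was that of an H1 gene. Hist1h1c (ENSMUSG00000036181, chr13:23738808-23740367, plus strand), which encodes histone H1.2, stood at 32.2, 32.6 and 35.2 FPKM in the PBS libraries. In the cisplatin libraries it stood at 20.1, 17.9 and 16.9 FPKM. Every cisplatin library lay below every PBS library. The log2 fold change was -0.83 (SE 0.07, n = 3 and 3), with a limma adjusted p of 4.2e-05. It was thus lower by less than 2-fold, and its adjusted p stayed under 0.05 in all 27 other settings tried. Of its 100-base windows, 94.9% were found in no other gene.

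Hist1h1d, which encodes histone H1.3, was too low for the FPKM filter, and its 7425-base gene model made its FPKM small for its reads. It had 59, 49 and 62 reads in the PBS libraries and 23, 16 and 27 in the cisplatin libraries, again without overlap. All genes with a mean of at least 10 reads per library were therefore also fitted with voom on the recovered reads, which took in 15494 genes and 16 histone genes. In this fit Hist1h1d was called lower, by 2.49-fold (log2 fold change -1.32, SE 0.29, voom adjusted p 0.00048). Its log2 fold change lay between -1.48 and -1.12 when any 1 library was left out.

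The other H1 genes had few reads and uneven values. Hist1h1b, encoding H1.5, had 14, 14 and 6 reads with PBS and 3, 11 and 4 with cisplatin. Hist1h1e, encoding H1.4, had 12, 5 and 8 reads with PBS and 4, 13 and 16 with cisplatin. In both genes the groups overlapped. Hist1h1a stayed between 2 and 4 reads in every library, and the testis H1 gene Hist1h1t had 2 reads in each of 2 PBS libraries and 0 elsewhere.

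The sequences upstream of Hist1h1c and Hist1h1d are shown because these were the H1 genes with a difference by adjusted p. They are the 250 bases before each RefSeq start on GRCm38.p6, at chr13:23738557-23738806 and chr13:23554782-23555031, both on the plus strand. The stretch for Hist1h1d lies inside the 7425-base gene model used for its reads, which runs over chr13:23553262-23560686. It is thus upstream of the RefSeq start only. Where in that model the reads fell was not tested. Capitals mark matches on either strand to AAACACA, known as the H1 box, to CCAAT and to TATAAA.
Hist1h1c: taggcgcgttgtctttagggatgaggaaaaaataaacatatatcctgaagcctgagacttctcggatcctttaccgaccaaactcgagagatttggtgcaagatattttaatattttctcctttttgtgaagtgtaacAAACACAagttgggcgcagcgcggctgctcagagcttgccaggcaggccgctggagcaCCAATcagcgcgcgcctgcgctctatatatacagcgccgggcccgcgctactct
Hist1h1d: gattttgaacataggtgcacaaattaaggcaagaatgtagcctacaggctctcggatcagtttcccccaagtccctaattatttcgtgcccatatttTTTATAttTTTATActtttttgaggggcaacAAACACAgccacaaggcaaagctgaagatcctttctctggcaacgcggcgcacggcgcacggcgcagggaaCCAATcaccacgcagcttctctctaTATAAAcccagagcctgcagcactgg
AAACACA was found in 5 of the 6 H1 promoters (83.3%), against 6.25% of the 32851 promoters in the table. CCAAT was found in all 6 (33.8% of the table). TATAAA, which stands in the second sequence but not in the first, was found in 4 of 6 (12.4% of the table). Among all 62 histone genes with a matched promoter, CCAAT was present in 82.3% and TATAAA in 46.8%. The octamer ATTTGCAT was present in 7 of 18 H2A and 7 of 16 H2B promoters and in 1.60% of the table, and in no H1, H3 or H4 promoter. These matches are counts of letters and were not compared with the fold changes.

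H2B was the next most abundant class. Hist1h2bc (ENSMUSG00000018102, chr13:23684199-23692908, plus strand) stood at 9.34, 9.11 and 11.0 FPKM with PBS and at 6.76, 8.43 and 8.43 FPKM with cisplatin. The groups did not overlap, and the log2 fold change was -0.29 (SE 0.10, limma adjusted p 0.041). This adjusted p was under 0.05 in 11 of 27 other settings, ranging from 0.018 to 0.46. It was 0.062 without PBS replicate 1, 0.12 without PBS replicate 3 and 0.097 without cisplatin replicate 1, and over 0.05 in every voom fit. Hist1h2bg (ENSMUSG00000058385, chr13:23571396-23572013, plus strand) went the other way. It stood at 2.83, 3.64 and 3.34 FPKM with PBS and at 4.28, 4.93 and 4.90 FPKM with cisplatin, a log2 fold change of 0.42 (SE 0.09, limma adjusted p 0.0053). It rested on 31 to 50 reads per library. The adjusted p of Hist1h2bg was under 0.05 in 21 of 26 other settings. In voom it was 0.038 and was lost without PBS replicate 1 (0.12), PBS replicate 3 (0.066), cisplatin replicate 2 (0.088) or cisplatin replicate 3 (0.088) and with a replicate block (0.056). The share of its windows found in no other gene was 55.1%.

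No other H2B gene had an adjusted p under 0.05 in the limma fit or in the voom fit of recovered reads. Hist2h2be, on chromosome 3, stood at 2.76, 2.92 and 2.81 FPKM with PBS and at 2.92, 3.42 and 2.82 FPKM with cisplatin (log2 fold change 0.08, SE 0.08, limma adjusted p 0.39). Its adjusted p was under 0.05 in 1 of 26 other settings, quantile normalisation (0.029). Of the H2B genes that passed the filter, Hist1h2bj was the most uneven. It stood at 3.05, 0.832 and 2.23 FPKM in the PBS libraries and 1.78, 1.71 and 1.18 FPKM in the cisplatin libraries. Its log2 fold change was -0.18 (SE 0.29, limma adjusted p 0.59) and became 0.06 without PBS replicate 1 (adjusted p 0.85) and -0.51 without PBS replicate 2 (adjusted p 0.032). Of the H2B genes that entered the voom fit alone, Hist1h2be, which overlaps Hist1h1e and Gm11398, had 33, 33 and 34 reads with PBS and 25, 21 and 26 with cisplatin. Its groups did not overlap, and its log2 fold change was -0.42 (SE 0.29, voom adjusted p 0.21). Hist1h2bh had 7, 10 and 9 reads with PBS and 18, 10 and 15 with cisplatin (log2 fold change 0.73, SE 0.45, voom adjusted p 0.15).

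The H2A gene with most reads was Hist3h2a (ENSMUSG00000078851, chr11:58954685-58956830, plus strand), which overlaps Trim17 and Gm44313. It stood at 1.66, 0.957 and 1.29 FPKM with PBS and at 1.56, 1.84 and 2.20 FPKM with cisplatin, and the groups overlapped. Its log2 fold change of 0.32 (SE 0.14) had a limma adjusted p of 0.083. On the recovered reads it was 0.61 (SE 0.25), with a voom adjusted p of 0.035, and 8 of 26 other settings gave an adjusted p under 0.05. By limma it was 0.036 without PBS replicate 1, and by voom it was 0.17 without PBS replicate 2, 0.070 without PBS replicate 3, 0.062 without cisplatin replicate 2 and 0.13 without cisplatin replicate 3, and 0.054 with a replicate block. Whether counting used strand is not given in the sources used here, so reads of the overlapping genes cannot be told apart from those of Hist3h2a.

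H3 and H4 genes encode nearly invariant proteins from many copies. Hist1h4i (ENSMUSG00000060639, chr13:22040636-22041362, minus strand) had the most reads of the H4 genes and stood at 7.77, 8.92 and 9.85 FPKM with PBS. With cisplatin it stood at 10.7, 9.05 and 8.75 FPKM, within an overlapping range (log2 fold change 0.09, SE 0.10, limma adjusted p 0.45). Hist1h4k, with 6 to 14 reads per library, gave 1.09, 1.65 and 2.69 FPKM with PBS and 2.64, 1.56 and 2.52 FPKM with cisplatin (log2 fold change 0.23, SE 0.23, limma adjusted p 0.41). The log2 fold change of Hist1h4k was 0.036 without PBS replicate 1 and 0.45 without PBS replicate 3. Its adjusted p was under 0.05 in 0 of 26 other settings. Among the H3 genes, Hist1h3d had the most reads, with 10, 13 and 13 with PBS and 21, 16 and 17 with cisplatin. Its groups did not overlap, but its log2 fold change of 0.63 (SE 0.39) had a voom adjusted p of 0.16.

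In the fit of recovered reads, 1 of the 16 histone genes was called higher and 1 lower, while 10.7% and 15.5% of the 15494 genes were called. At an unadjusted p under 0.05, 3 of the 16 were higher and 2 were lower, beside 6067 and 5095 of the 15494 genes. The counts of 3 and 2 also held by the adjusted p alone, against 37.8% higher and 32.0% lower among all genes. The gene called lower was Hist1h1d. The gene called higher was Hist2h3c2, an H3 gene with 9, 6 and 5 reads with PBS and 20, 10 and 18 with cisplatin (log2 fold change 1.23, SE 0.48, voom adjusted p 0.027). This call was lost without PBS replicate 2 (adjusted p 0.064), without PBS replicate 3 (0.083), without cisplatin replicate 1 (0.082) and without cisplatin replicate 3 (0.076). Hist2h3c2 has near copies in its cluster, and 38.4% of its windows were found in no other gene. Hist1h1d, Hist2h3c2 and the low H1 genes were chosen for description after their values were seen.

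**Figure D3:**
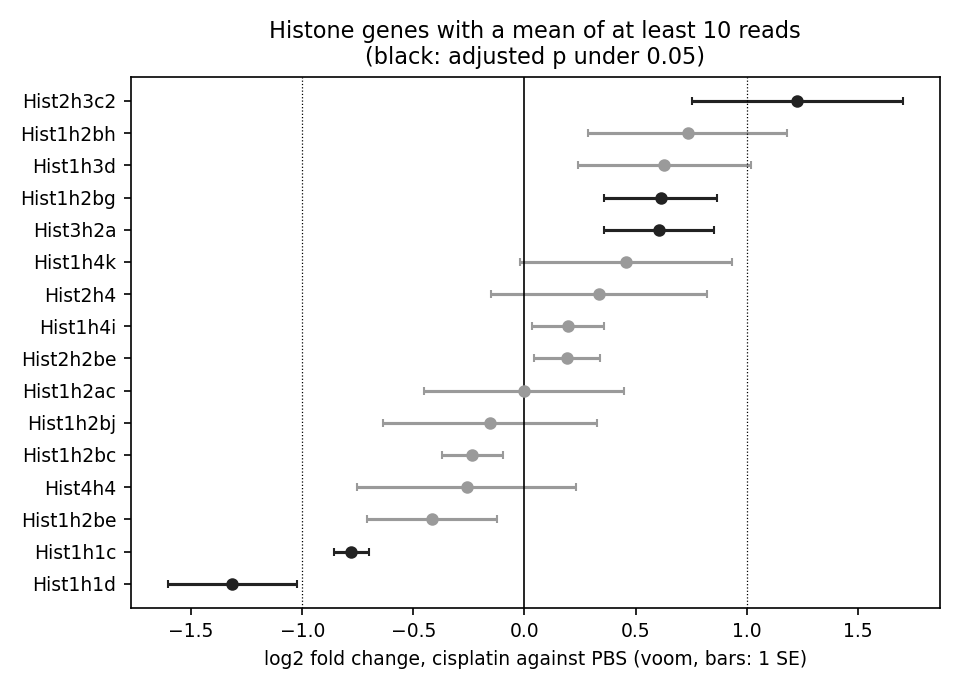
Log2 fold change of cisplatin against PBS for the 16 histone genes with a mean of at least 10 reads, from voom on recovered reads, with bars of 1 SE, a solid line at 0 and dotted lines at 2-fold in either direction. Genes with an adjusted p under 0.05 are black: Hist1h1d and Hist1h1c lie to the left of 0, and Hist3h2a, Hist1h2bg and Hist2h3c2 to the right.

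In sum, the histone genes took 99.5, 97.5 and 107 reads per 1000000 in the PBS libraries and 81.1, 79.6 and 79.1 in the cisplatin libraries. The means were 101 ± 4.99 and 79.9 ± 1.004 reads per 1000000 (SD, n = 3 each), a ratio of 0.789 with cisplatin against PBS. The difference lay in class H1. Its reads were 55.7 ± 2.46 per 1000000 with PBS and 32.3 ± 1.93 with cisplatin, a ratio of 0.579. Without Hist1h1c, the remaining 66 genes summed to 50.5 ± 2.82 and 50.3 ± 1.56 reads per 1000000, a ratio of 0.997. The core classes together stood at 45.7 ± 2.57 and 47.7 ± 0.93 reads per 1000000, a ratio of 1.04 on reads, and their groups overlapped. By class the ratios were 0.991 for H2B, 1.02 for H4, 1.20 for H2A and 1.27 for H3. As shares of summed FPKM, which weight short genes more, they were 0.915, 0.995, 0.926 and 1.05, and for the core classes together 0.958, so that the directions for H2A, H4 and the core sum turned with the scale. These sums were not tested.

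**Figure D4:**
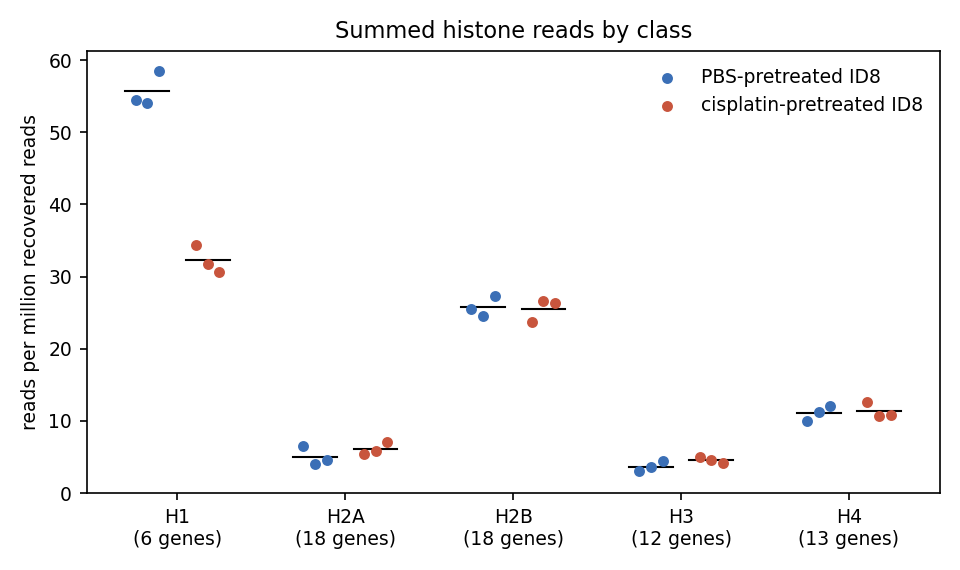
Reads per 1000000 recovered reads summed over the genes of each histone class, in each PBS (blue) and cisplatin (red) library, with black lines at the group means and an axis that starts at 0. The H1 class lies between 54.1 and 58.5 with PBS and between 30.6 and 34.4 with cisplatin, and the points of the 4 core classes lie close together or overlap.

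By cluster, Hist1 genes summed to 88.7 ± 5.53 reads per 1000000 with PBS and 64.3 ± 1.63 with cisplatin, the cluster that holds all 6 H1 genes. Hist2 genes summed to 8.42 ± 0.24 and 10.02 ± 0.61 reads per 1000000, with every cisplatin library above every PBS library. Hist3 genes summed to 3.27 ± 0.85 and 4.69 ± 0.82, and the Hist4 gene to 0.947 ± 0.33 and 0.888 ± 0.57 reads per 1000000, both with overlapping groups.

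Histone variants are also encoded outside the clusters, mostly by genes with polyadenylated mRNA that are active beyond S phase, whereas H2afx is known to give both a stem-loop and a polyadenylated mRNA. The 11 such genes listed here summed to 680 to 740 FPKM with PBS and 538 to 555 FPKM with cisplatin, beside 79.3 to 90.1 and 64.1 to 67.1 FPKM for the 67 genes of the clusters. Of these 11 replacement histone genes, 0 were called higher and 1 lower, beside 4.67% and 11.3% of all genes. By adjusted p alone 4 were higher and 5 lower, that is, 36.4% and 45.5% beside 32.9% and 35.1% of all genes. By limma at an unadjusted p under 0.05, 5 were higher and 5 lower, beside 4613 and 4889 of all 13441 genes tested. Voom called 0 higher and 2 lower, beside 1227 and 1862 of the same 13441 genes. The gene called lower was H1f0, the linker histone known from non-dividing cells, at 214, 189 and 217 FPKM with PBS and 16.8, 17.8 and 17.4 FPKM with cisplatin. Its log2 fold change was -3.50 (SE 0.06, limma adjusted p 6.2e-08). Voom called H1f0 and also H2afy2 lower, a macroH2A gene that fell short of 2-fold in limma and was named after its values were seen. H2afx, the variant phosphorylated at DNA breaks, was higher by 0.63 on the log2 scale (SE 0.06, limma adjusted p 7.7e-05). H2afz was higher by 0.31 (limma adjusted p 0.0013), and H3f3b was lower, with a log2 fold change of -0.20 (limma adjusted p 0.0013). H3f3a, the other H3.3 gene, stood at -0.01 (limma adjusted p 0.70).

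**Figure D5:**
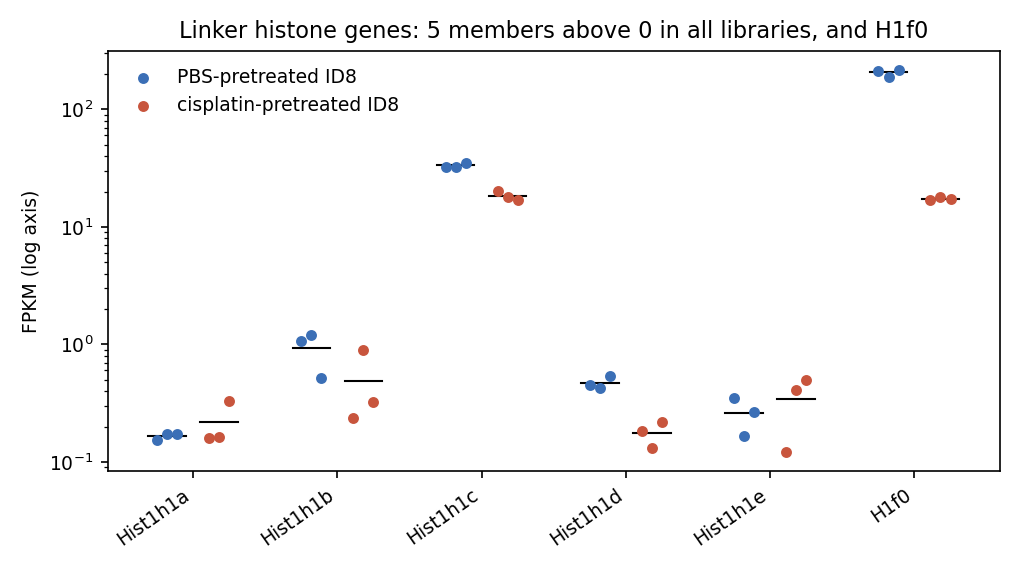
FPKM (log axis) of the 5 H1 genes of the clusters that were above 0 in all libraries and of the replacement linker histone H1f0, in each PBS (blue) and cisplatin (red) library, with black lines at the group means. Hist1h1c, Hist1h1d and H1f0 have every cisplatin library below every PBS library, and the other 3 genes overlap between groups.

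Genes that act in transcription of histone genes or on their mRNA were described from a list. Of its symbols, 21 were found among the protein-coding genes, though not every one, and 20 were tested by limma. None passed both the adjusted p and 2-fold, beside 4.67% higher and 11.3% lower among all genes. By voom 0 were called as well. At an unadjusted p under 0.05, 10 were higher and 5 lower, beside 4613 and 4889 of all 13441 genes tested. By adjusted p alone 8 were higher and 4 lower, that is, 40% and 20% beside 32.9% and 35.1% of all genes. Their median log2 fold change was 0.17. By voom on the same genes 13 were higher and 3 lower by adjusted p alone (65% and 15%, beside 39.2% and 32.1% of all genes), with a median of 0.28 beside 0.09 for all genes. Slbp, whose product binds the stem-loop, stood at 10.4 ± 0.27 FPKM with PBS and 12.1 ± 0.36 FPKM with cisplatin (SD, n = 3 each), with a log2 fold change of 0.20 and a limma adjusted p of 0.0060. Lsm11, a component of the U7 particle that cuts the mRNA after the stem-loop, had a log2 fold change of -0.28 (limma adjusted p 0.022). Npat and Casp8ap2, which act in transcription of these genes, had log2 fold changes of -0.19 and 0.18 (limma adjusted p 0.070 and 0.063). Zfp473, a zinc finger protein of the cleavage complex, was at 0.205 ± 0.06 FPKM with PBS and 0.252 ± 0.05 FPKM with cisplatin and was too low for this test.

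Of 18 histone chaperone genes, which carry histones to DNA, 0 were called higher and 1 lower, beside 4.67% and 11.3% of all genes. By adjusted p alone 9 were higher and 5 lower, that is, 50% and 27.8% beside 32.9% and 35.1% of all genes. At an unadjusted p under 0.05, 10 were higher and 5 lower, beside 4613 and 4889 of all 13441 genes tested. Voom called 0 higher and 1 lower, beside 1227 and 1862 of all 13441 genes tested. By its adjusted p alone 12 were higher and 4 lower (66.7% and 22.2%, beside 39.2% and 32.1% of all genes). The median log2 fold change by voom was 0.26 in place of 0.14, beside 0.09 for all genes. The gene called lower was Daxx, a chaperone of H3.3, with a log2 fold change of -1.37 (SE 0.04, limma adjusted p 2.7e-07).

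Since histone genes of the clusters are transcribed mainly in S phase, genes of the cell cycle were set beside them. Of 34 S phase genes, limma called 0 higher and 0 lower, beside 4.67% and 11.3% of all genes. By adjusted p alone 16 were higher and 6 lower, that is, 47.1% and 17.6% beside 32.9% and 35.1% of all genes. At an unadjusted p under 0.05 the counts were 17 and 6, beside 4613 and 4889 of all 13441 genes tested. The median log2 fold change was 0.17. Voom called 1 higher, Ccne1, which was named after its values were seen, beside 1227 of all 13441 genes tested. By its adjusted p alone 22 were higher and 3 lower (64.7% and 8.82%, beside 39.2% and 32.1% of all genes), with a median of 0.29. Rrm2, a subunit of ribonucleotide reductase, was at 23.1 ± 0.92 FPKM with PBS and 43.1 ± 2.83 FPKM with cisplatin (log2 fold change 0.87, SE 0.06, limma adjusted p 1.4e-05). Pcna and Mcm2, of the replication machinery, had log2 fold changes of 0.31 and 0.40 (limma adjusted p 0.00015 and 0.0012). Of 20 genes of G2 and mitosis, 0 were called by limma or by voom. By adjusted p alone 3 were higher and 11 lower, that is, 15% and 55% beside 32.9% and 35.1% of all genes. At an unadjusted p under 0.05 the counts were 3 and 12, again beside 4613 and 4889 of all genes, and the median was -0.14. By voom on the same genes 4 were higher and 8 lower by adjusted p alone (20% and 40%, beside 39.2% and 32.1% of all genes). Their median by voom was -0.06. Mki67, a marker of cycling cells, had a log2 fold change of 0.27 (limma adjusted p 0.012). The limma medians stood beside 0.00 for all genes tested and the voom medians beside 0.09.

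Markers of other cells differed between the groups in the same libraries. All 12 macrophage genes were detected, as the label of the cells has it, and they summed to 2172 to 2198 FPKM with PBS and 5066 to 5210 FPKM with cisplatin. Csf1r, the receptor of the macrophage growth factor, had a log2 fold change of 0.92, and Adgre1, which encodes F4/80, of 0.87 (limma adjusted p 9.2e-07 and 6.5e-07). Of 12 epithelial and mesothelial genes listed for ID8 cells, 9 were tested and 7 were called lower, with summed levels of 1012 to 1089 FPKM with PBS and 183 to 197 FPKM with cisplatin. Krt19, a keratin of epithelial cells, was at 588 ± 28.8 FPKM with PBS and 51.1 ± 3.802 FPKM with cisplatin, and Krt8 and Krt18 had log2 fold changes of -2.60 and -2.07. In contrast, Cdh1, the E-cadherin gene, chosen for mention because of its value, had a log2 fold change of 0.60 (SE 0.11, limma adjusted p 0.0024). No gene of this list was listed at 0 in all libraries. The cisplatin to PBS ratio of mean FPKM was 0.0869 for Krt19, 0.0837 for H1f0, 0.548 for Hist1h1c and 0.378 for Hist1h1d. Neutrophil progenitor genes were called higher in 8 of 10 cases and lymphocyte genes in 4 of the 6 tested, while of 4 erythroid genes tested by limma 0 were called and 0 had an unadjusted p under 0.05, and voom called 1 of 8 lower. The part of these cells in the histone values was not tested, and in such bulk RNA fewer cells of a type and less RNA per cell cannot be told apart.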

How the data were processed

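Gene-level FPKM values were deposited by the authors for 6 BMDM libraries, 3 per group, with groups taken from the labels. The submitters' processing notes list fastp, HISAT2 2.0.5, featureCounts 1.5.0-p3 and mm10, whereas the study's methods name LifeScope for alignment and DESeq2 for testing. Neither gives the treatment of strand or of reads with several matches. The coordinates of all 67 members equalled those of GENCODE M21 on GRCm38.

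Multiplied by gene length, values under 200 reads were whole multiples of 1 read in 100% of cases (tolerance 0.01 reads), which gave 15776238 to 17924686 recovered reads per library. Genes of at least 1 FPKM in at least 3 libraries were tested as log2(FPKM + 1) with limma 3.58.1 (lmFit, eBayes with trend, R 4.3.3), two-sided, with group as the only term and Benjamini-Hochberg adjustment over 13441 genes. Fold changes on this scale understate changes of low genes. Recovered reads were fitted with voom. The study's methods mention biological replicates, but neither they nor the labels say whether libraries of a group came from separate cultures or animals, so p-values measure only the spread between these libraries, which may be technical. As 51 of the 67 members averaged under 10 reads in a library, counting error is large for most members. Its part in the spread between libraries was not tested.

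The members and gene lists were chosen with earlier results of these data known. Named genes were every member passing the FPKM filter, the member with most reads in each class, and fixed genes of each list with any called gene of largest change, and others are identified in the text. Promoters of 62 members were matched in RefSeq tables. Alternatives covered scaling, filters, pseudocount, voom, left-out libraries and a replicate block. Numbers of distinct proteins came from translated GENCODE M21 coding sequences.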

Additional observations from a re-analysis of the deposited data

How the results depend on the processing

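Among the single-gene and list values, 322 of 389 recomputed values kept their direction and their side of the threshold, or stayed within the replicate spread. No histone gene was called in either direction by limma on log2(FPKM + 1) in any setting of scaling, filter or pseudocount or with any 1 library left out. By adjusted p alone 1 was higher and 2 lower. Voom on genes with a mean of at least 10 reads called 1 higher and 1 lower, and leaving out each library in turn, chosen after seeing the data, gave 0 to 1 higher and 1 to 1 lower. Over the histone genes tested, the median log2 fold change of 0.09 became -0.051 without a filter, -0.29 with a filter at 5 FPKM, which kept fewer genes, 0.16 with scaling by recovered reads, 0.22 after quantile normalisation, 0.19 with voom on the same genes and 0.19 with voom on genes of at least 10 reads. It ranged from 0.049 to 0.13 with a library left out, and under voom from 0.16 to 0.23 (0.21 without PBS replicate 2). The median of all genes was itself shifted to 0.10 by quantile normalisation and to 0.11 by removing a trend with gene length. With scaling by recovered reads the median of all genes was 0.07, and with voom on the same genes it was 0.09. The read totals behind the FPKM were 97.4% to 98.7% of the recovered reads in PBS libraries and 104% in cisplatin libraries. These 2 alternatives put the recovered reads in place of those totals. Apart from the alternatives' construction, the cause of the shifts was not tested. The ratio of summed histone reads, 0.789, was 0.786 on FPKM and 0.774 to 0.811 with a library left out. The sign turned for 3 genes with few reads, none past the threshold. Hist1h2bj gave -0.51 to 0.063 with a library left out, turning without PBS replicate 1, and under voom ranged from -0.67 to 0.24, turning to 0.24 without PBS replicate 1 and 0.022 without cisplatin replicate 3. Under voom Hist1h2ac ranged from -0.37 to 0.24, turning to 0.24, 0.13 and 0.24 without PBS replicate 1, PBS replicate 2 and cisplatin replicate 1, and Hist4h4 ranged from -0.74 to 0.32, turning without cisplatin replicate 2.

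No shared deviation of libraries with the same replicate number was seen. Deviations from the group means correlated at -0.10, -0.09 and -0.02 for numbers 1 to 3. Whether such libraries were paired in origin cannot be told from these values. With the replicate number as a block, 0 members were called and the median was 0.09, and in voom the block gave 1 higher, 1 lower and a median of 0.20. Of the 67 genes, 51 averaged under 10 reads at this depth and entered neither the FPKM fit nor the voom fit.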
